A study of Mus musculus with 2 samples.

Results

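The genes described here encode 7 paired activating and inhibitory receptors of myeloid cells: Cd300a, Cd300c2, Cd300lb, Cd300ld and Cd300lf of the CD300 family, and Pirb and Lilrb4a of the leukocyte immunoglobulin-like receptors. They are 7 of 21887 protein-coding genes counted, and they were chosen from measured values, the fragment counts over these genes in the same cells, so their differences between cell classes are a description and not a test. Open chromatin was profiled in single mouse liver nuclei with ATAC-seq on droplets. A transposase cuts accessible DNA there, and each unique piece sequenced is a fragment. Of the 2 libraries, 1 came from a Spta sph/sph mouse, a spectrin mutant with fragile red blood cells, and the other from its Spta wt/wt littermate. Both were untreated males of 8 to 10 weeks, and in both the non-parenchymal liver cells were enriched with magnetic beads against F4/80, a macrophage surface protein. The barcodes end in 1 or 2, and no label or file header says which ending belongs to which genotype. All values stand by library, 2 and then 1, without any comparison of genotypes, and 1 library on each side allowed no test.

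CD300 receptors sit on the surface of macrophages, granulocytes and dendritic cells and bind lipids such as the phosphatidylserine exposed by dying cells. Inhibitory members carry tyrosine motifs that recruit phosphatases, while activating members signal through the adaptors Tyrobp (DAP12) and Fcer1g and the kinase Syk. In liver, Kupffer cells, the resident macrophages of the sinusoids, remove damaged red blood cells and apoptotic bodies, which display such ligands.

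Library 2 held 21656110 fragments and library 1 held 11401694, of which 56.2% and 83.2% lay in the 575 and 637 barcodes that the deposited table calls cells. The filter kept 562 and 609 cells. Kupffer-like cells numbered 180 in library 2 and 318 in library 1, and liver endothelial-like cells numbered 136 and 125. All 12 Kupffer markers had fragments in both classes, with summed levels of 847 and 1150 fragments per 1000000 fragments of the class (CPM) in Kupffer-like cells of library 2 and library 1, against 168 and 186 CPM in endothelial-like cells. Cluster 5, with 78 and 54 cells, scored highest for monocyte markers but kept no name, because 0 of them were among its 10 leading genes by fold while 1 marker of another list, the dendritic gene Flt3, was. Cluster 3, with 142 cells of library 2 and 16 of library 1, also kept no name and had a median of 34.5% of fragments in peaks in library 2. The libraries stand apart: Kupffer-like cells had a median of 60.6% of fragments in peaks in library 2 and 74.0% in library 1, and they lay in different clusters, 176 of 180 in cluster 2 for library 2, and 207 and 97 of 318 in clusters 1 and 7 for library 1. Cluster 2 carried its name from its marker score, with all 12 markers detected. With pile-ups left in, none of them was among its 10 leading genes by fold. The same held for cluster 6, which gave 97 of the 136 endothelial-like cells of library 2. Pile-ups are 20 kb stretches crowded by a single cell, with minimums of 10 fragments and 10-fold. Library 2 had 129 per cell with 12.1% of fragments, against 7.42 and 0.649% in library 1. With pile-ups masked, Marco and C1qc were among the leading genes of cluster 2, and Flt4 among those of cluster 6. C1qc also led in cluster 1. The part of pile-ups in the split between the libraries was not tested. The called cells of both libraries shared 0 barcode sequences.

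The 5 CD300 genes lie on chromosome 11 in a region of 250.2 kb (chr11:114887152-115137372, GRCm38) that holds 11 Cd300 genes and Rab37. Pirb lies on chromosome 7 at 3712505 to 3720382 and Lilrb4a on chromosome 10 at 51490898 to 51496613. Gene starts and their sequences were taken from the RefSeq promoter table (GRCm38.p6), which matched 6 of the 7 genes. The table's starts of Cd300a, Cd300c2 and Cd300lf lie inside the spans of these genes in the gene table used for counting. Lilrb4a is named only. The stretches printed next run from 200 bases before to 20 bases after each annotated start, 5′ to 3′ along the gene's strand, and capitals mark GGAAGT, the core bound by PU.1 and other Ets factors of the myeloid lineage, or its reverse complement. They are shown because the counts at these starts differ widely between the genes. They lie at chr11:114889841-114890060, plus strand for Cd300a, chr11:114989867-114990086, minus strand for Cd300ld, chr11:115133973-115134192, minus strand for Cd300lf, chr11:115001861-115002080, minus strand for Cd300c2 and chr11:114934352-114934571, minus strand for Cd300lb.
Cd300a: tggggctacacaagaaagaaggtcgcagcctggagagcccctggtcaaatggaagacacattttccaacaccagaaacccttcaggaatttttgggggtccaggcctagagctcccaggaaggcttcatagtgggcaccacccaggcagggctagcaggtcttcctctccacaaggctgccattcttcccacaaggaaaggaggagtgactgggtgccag
Cd300ld: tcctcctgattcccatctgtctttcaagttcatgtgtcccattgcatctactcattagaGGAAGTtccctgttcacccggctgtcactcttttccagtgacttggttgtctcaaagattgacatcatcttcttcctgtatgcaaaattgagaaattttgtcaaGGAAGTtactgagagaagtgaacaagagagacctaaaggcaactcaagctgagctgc
Cd300lf: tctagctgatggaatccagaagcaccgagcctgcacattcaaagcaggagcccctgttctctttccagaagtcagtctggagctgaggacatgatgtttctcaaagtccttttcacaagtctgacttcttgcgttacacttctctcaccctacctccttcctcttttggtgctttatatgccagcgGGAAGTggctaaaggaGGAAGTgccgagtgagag
Cd300c2: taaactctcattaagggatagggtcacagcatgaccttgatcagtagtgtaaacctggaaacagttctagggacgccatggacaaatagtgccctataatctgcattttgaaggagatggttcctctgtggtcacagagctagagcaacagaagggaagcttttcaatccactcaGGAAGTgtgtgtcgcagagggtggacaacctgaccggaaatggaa
Cd300lb: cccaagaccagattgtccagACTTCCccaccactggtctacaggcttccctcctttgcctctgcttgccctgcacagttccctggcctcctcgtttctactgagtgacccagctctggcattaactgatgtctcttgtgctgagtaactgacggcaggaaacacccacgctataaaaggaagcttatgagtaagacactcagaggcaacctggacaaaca
Over the full 300 bases of the table, from 250 before to 50 after the start, GGAAGT was found on either strand in 5 of the 6 genes with an entry and in 24.8% of 21263 promoters. Cd300a was the gene without it. The C/EBP letters TTGCNNAA were found in 1 of the 6 genes, Cd300a, and in 10.2% of all promoters. The AP-1 letters TGANTCA were found in 0 of 6 and in 6.99%, and the MAF half-site TGCTGA in 3 of 6, Cd300lb, Cd300ld and Pirb, and in 18.1%. No match in these genes overlapped a match of another motif, and a match is a description of letters, not a bound site.

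In the pair of sequences that follows, capitals mark the bases that differ between Pirb and its activating relative Pira1 over the same interval, chr7:3720363-3720582, minus strand for Pirb and chr7:3739898-3740117, minus strand for Pira1. They are shown because few fragments were placed at either start.
Pirb: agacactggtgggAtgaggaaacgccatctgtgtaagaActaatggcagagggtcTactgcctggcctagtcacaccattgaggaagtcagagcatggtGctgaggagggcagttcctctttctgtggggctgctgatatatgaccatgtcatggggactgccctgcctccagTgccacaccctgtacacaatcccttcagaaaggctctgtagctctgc
Pira1: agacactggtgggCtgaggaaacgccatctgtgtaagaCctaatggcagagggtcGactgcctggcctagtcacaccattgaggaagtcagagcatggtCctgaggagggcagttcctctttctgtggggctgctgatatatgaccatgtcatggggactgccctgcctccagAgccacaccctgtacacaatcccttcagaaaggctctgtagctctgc
The 2 promoters were equal at 292 of 300 bases, with 8 bases different, and 73.7% of all 50-base words of the Pirb promoter also occurred in the promoter of another gene of the table. The first genomic read ran for 50 cycles, per the labels' protocols. In Kupffer-like cells, the 1 kb around the Pirb start held 3 fragments in library 2 and 3 in library 1, and that around the Pira1 start held 0 and 0. The start of Lilra6, of whose words 15.1% recurred, held 16 and 54. A like contrast stood inside the Cd300 cluster, where the promoters of Cd300ld4 and Cd300ld5 were equal at all 300 bases and their starts held 0 fragments in both libraries. Cd300ld3, equal to Cd300ld4 at 285 of 300 bases with no 50-base word shared, had 23 fragments in library 2 and 49 in library 1. The treatment of reads with several equally good positions is not stated in the labels or headers, and the part of shared sequence in the low counts was not tested.

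The 7 genes were high in Kupffer-like cells and in cluster 5 and low in endothelial-like cells. Cd300a, an inhibitory receptor for phosphatidylserine and phosphatidylethanolamine, reached 105 CPM (268 fragments, interval 92.4 to 118) in Kupffer-like cells of library 2 and 79.3 CPM (434 fragments, interval 72.0 to 87.1) in those of library 1, against 10.8 CPM (6.78 to 16.4) and 5.63 CPM (2.57 to 10.7) in endothelial-like cells. All intervals here are 95% intervals that cover counting error only. The Kupffer-like interval lay above the endothelial-like interval in each library.

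The activating receptors of the cluster had the same order of classes. Cd300c2 (CLM-4, also called MAIR-II), which pairs with Tyrobp and Fcer1g, had 32.8 CPM in Kupffer-like cells of library 2 and 56.8 CPM in library 1, against 3.44 and 3.75 CPM in endothelial-like cells. Cd300lb (CLM-7), which also signals through Tyrobp, had 25.7 and 52.1 CPM in Kupffer-like cells, against 3.94 and 5.0 CPM in endothelial-like cells. Cd300ld (CLM-5), which signals through Fcer1g, had 23.8 and 32.7 CPM in Kupffer-like cells, against 0.984 and 3.13 CPM in endothelial-like cells. For each of these genes the Kupffer-like and endothelial-like intervals were apart in both libraries.

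The other inhibitory receptors were also higher in Kupffer-like than in endothelial-like cells. Cd300lf (CLM-1), which binds phosphatidylserine and ceramide, had 37.5 and 49.9 CPM in Kupffer-like cells of library 2 and library 1, against 8.36 and 6.25 CPM in endothelial-like cells. The span of Cd300lf lies within that of Rab37, so the fragments of its window cannot be given to Cd300lf alone. Pirb, an inhibitory receptor for major histocompatibility complex class I molecules, had 15.2 CPM (10.8 to 20.8) and 18.8 CPM (15.4 to 22.8) in Kupffer-like cells, against 3.44 CPM (1.38 to 7.1) and 7.5 CPM (3.88 to 13.1) in endothelial-like cells. Lilrb4a (gp49B), an inhibitory receptor of myeloid and mast cells, had 48 and 109 fragments in Kupffer-like cells, or 18.7 and 19.9 CPM, against 1 and 0 fragments in endothelial-like cells. Scaled per kb of window, the order in library 2 was Cd300a at 6.23 CPM per kb, Cd300c2 at 2.84, Cd300ld at 2.08, Lilrb4a at 1.93, Cd300lb at 1.65, Cd300lf at 1.62 and Pirb at 1.28. In library 1 the order was Cd300c2 at 4.92 CPM per kb, Cd300a at 4.72, Cd300lb at 3.34, Cd300ld at 2.86, Cd300lf at 2.15, Lilrb4a at 2.05 and Pirb at 1.58. Cd300a stood apart from the next gene in library 2, Cd300c2 and Cd300a did not differ beyond counting error in library 1, and Pirb was last in both.

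**Figure D1:**
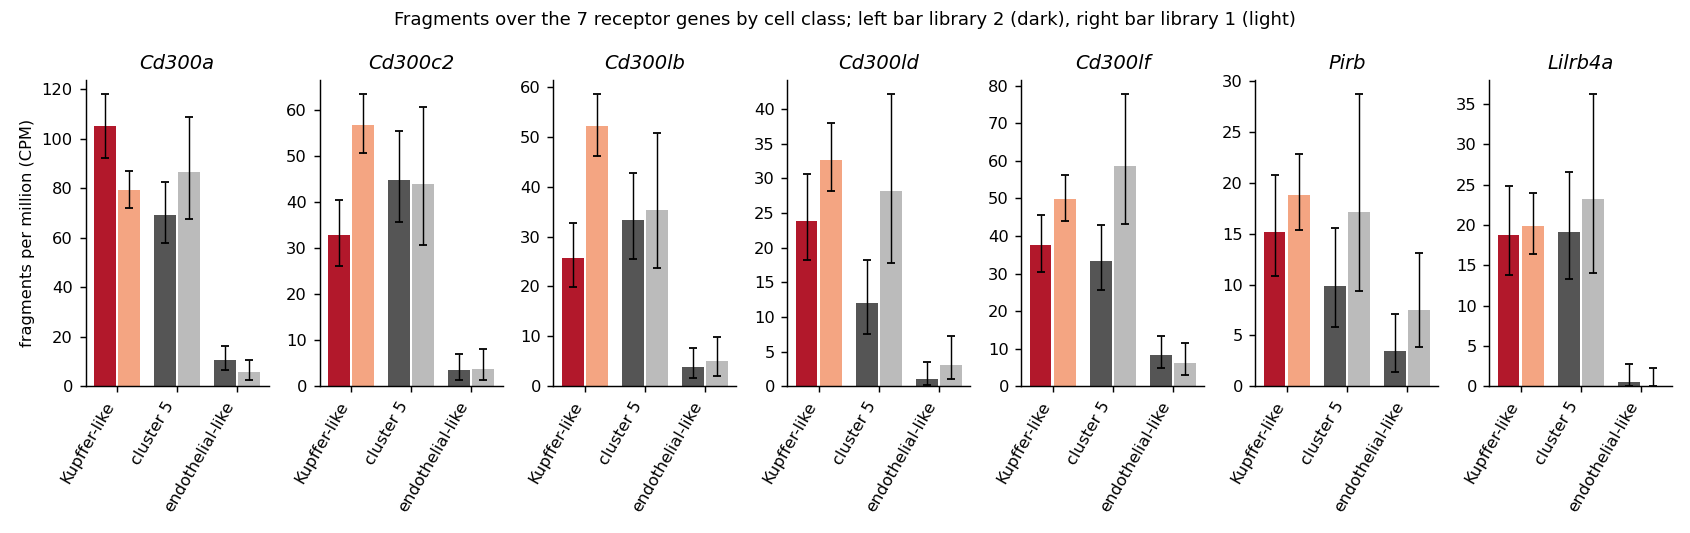
CPM over each gene with 2 kb on both sides, for Kupffer-like cells, cluster 5 and endothelial-like cells, with library 2 as the left (dark) and library 1 as the right (light) bar of each pair, exact Poisson 95% intervals as error bars and a vertical scale of its own for each gene. The values of Kupffer-like cells and cluster 5 lie above those of endothelial-like cells for all 7 genes, though for Pirb the intervals of cluster 5 and endothelial-like cells overlap, and Lilrb4a has 1 fragment in endothelial-like cells of library 2 and 0 in library 1.

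As log2 ratios relative to the median gene, Kupffer-like over endothelial-like, the values of Cd300a were 3.22 in library 2 and 3.74 in library 1, those of Cd300c2 3.14 and 3.81, and those of Cd300lb 2.61 and 3.29. Cd300ld had 4.26 and 3.25, and Cd300lf 2.10 and 2.93. A gene was called past the fold at a log2 ratio of 1 or more, or −1 or less, with at least 50 fragments in both classes together. In library 2, 5 of 5 members with enough fragments were past the fold upward, beside 9.97% of all 13622 genes, and in library 1, 7 of 7 were, beside 12.1% of 14989 genes. In library 2 Pirb, with 39 fragments in Kupffer-like and 7 in endothelial-like cells, and Lilrb4a, with 48 and 1, were under the minimum. Most of the members' fragments came from Kupffer-like cells, so members reached the minimum mainly through the class where they were high. With the members chosen from these counts, nothing is read from the shares. Pirb was the lowest of the 7 genes in each library, with a log2 ratio of 2.04 in library 2 (interval 0.94 to 3.53) and of 1.27 in library 1 (interval 0.46 to 2.32). Lilrb4a had no fragment in endothelial-like cells of library 1. Against 3 fragments, the limit that a count of 0 allows, it was at least 10.6-fold higher in Kupffer-like cells. This bound takes the 109 fragments of Kupffer-like cells as exact. The interval of its log2 ratio, which covers the error of both counts, began at 3.08.

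The whole Cd300 region, in which each fragment counts a single time, had 467 CPM in Kupffer-like cells of library 2 and 593 CPM in library 1, against 95.9 and 105 CPM in endothelial-like cells, with log2 ratios of 2.26 (2.04 to 2.48) and 2.49 (2.27 to 2.73). With cells thinned to 5000 fragments each, 36.2% of 160 Kupffer-like cells of library 2 and 34.3% of 289 of library 1 had a Cd300a fragment, against 3.28% of 122 and 5.0% of 100 endothelial-like cells. Without thinning the shares were 61.1% and 62.6% in Kupffer-like cells, against 8.09% and 6.4% in endothelial-like cells. Lilrb4a was seen in 8.75% and 8.3% of thinned Kupffer-like cells, against 0 of 122 and 0 of 100 endothelial-like cells, which allows shares of up to 2.46% and 3.0%. At this depth 28.7% of Kupffer-like cells in library 2 and 38.8% in library 1 had fragments of 2 or more of the 7 genes. The shares were 1.64% and 1.0% in endothelial-like cells, but 29.0% and 36.7% in cluster 5. Cd300a was seen in 31.9% and 26.5% of thinned cells of cluster 5, and Lilrb4a in 11.6% and 12.2%. No single cell carried the Cd300a signal, since the fullest Kupffer-like cell held 2.61% of its fragments in library 2 and 1.61% in library 1. Pirb rested on fewer cells in library 2, where the fullest cell held 10.3% of its fragments and 10 cells held 25 of 39. Thinned Kupffer-like cells had Pirb in 4.38% and 11.4%, against 1.64% and 5.0% of endothelial-like cells, and these intervals overlapped in each library.

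**Figure D2:**
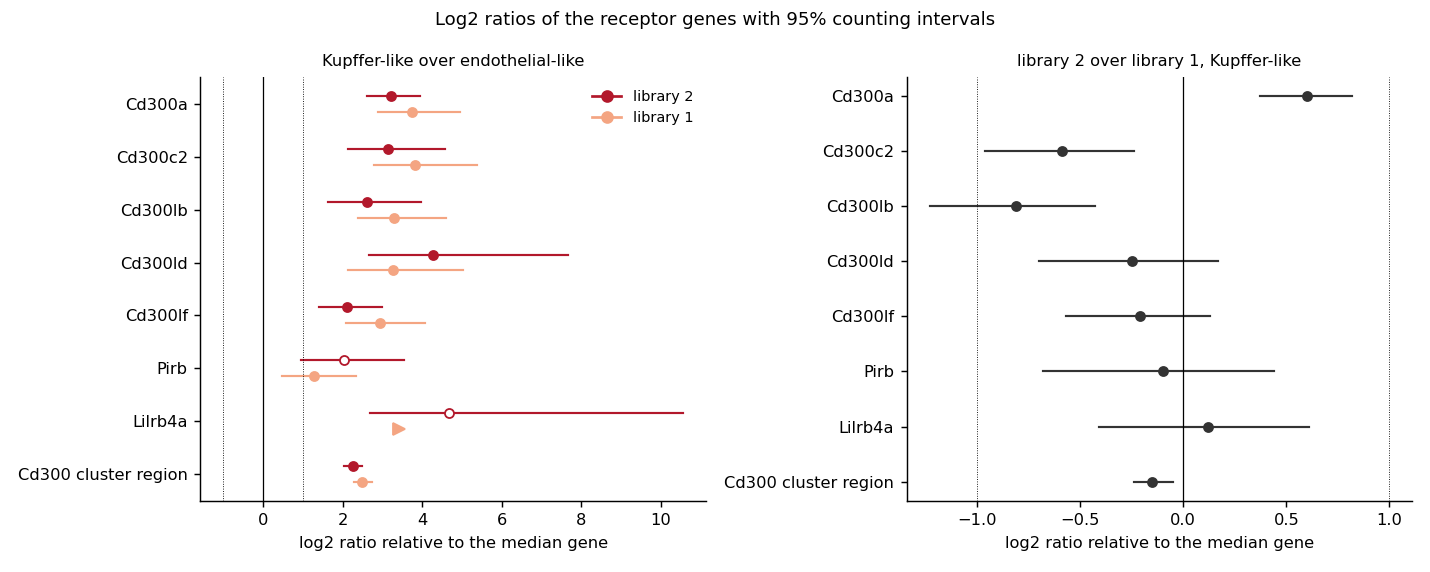
Log2 ratios relative to the median gene with exact 95% counting intervals, on the left Kupffer-like over endothelial-like with library 2 above library 1, on the right library 2 over library 1 in Kupffer-like cells, dotted lines at −1 and 1. Open points have under 50 fragments, and the arrowhead marks the lower bound of 3.41 for Lilrb4a in library 1, which takes the Kupffer-like count as exact. On the left all values lie above 1, and on the right only Cd300a lies above 0 with its whole interval.

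Between Kupffer-like cells and cluster 5 the ratios were smaller. In library 2 Cd300ld was past the fold upward, with 23.8 CPM in Kupffer-like cells against 12.0 CPM in cluster 5 and a log2 ratio of 1.14 (0.44 to 1.94), and the other 6 members were not, beside 7.37% of all genes upward and 6.15% downward. In library 1 Cd300ld had 32.7 CPM in Kupffer-like cells against 28.1 CPM in cluster 5, a ratio of 0.30 (−0.31 to 1.02), and 0 of 7 members were past the fold, beside 5.59% upward and 3.02% downward. Cd300a had 105 CPM against 69.4 CPM in library 2, a ratio of 0.77 (0.46 to 1.08), and 79.3 CPM against 86.6 CPM in library 1, a ratio of −0.03 (−0.39 to 0.36). Stellate or fibroblast-like cells had 14.8 CPM of Cd300a in library 2 and 12.3 CPM in library 1, and hepatocyte-like cells of library 1 had 4.42 CPM. Cluster 3 of library 2 had 33.5 CPM of Cd300a and 223 CPM over the region, between the levels of Kupffer-like and endothelial-like cells.

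Between the libraries, Cd300a differed in the opposite direction to Cd300lb and Cd300c2 of the same cluster in Kupffer-like cells. Cd300a had 105 CPM in library 2 against 79.3 CPM in library 1, a log2 ratio of 0.60 (0.37 to 0.82) relative to the median gene, which itself stood at −0.20. Cd300c2 had 32.8 CPM against 56.8 CPM, a ratio of −0.59 (−0.96 to −0.24). Cd300lb had 25.7 CPM (19.9 to 32.8) against 52.1 CPM (46.2 to 58.5), a ratio of −0.81 (−1.23 to −0.43). The CPM intervals of each of these 3 genes did not overlap between the libraries. Cd300ld at −0.25, Cd300lf at −0.21, Pirb at −0.10 and Lilrb4a at 0.12 had intervals that included 0, and without the centring on the median gene Lilrb4a changes sign. None of the 7 members was past the fold, beside 6.69% of all 15179 genes upward and 3.76% downward, and the region as a whole had −0.15 (−0.24 to −0.05).

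These library values rest on which cells count as Kupffer-like. In library 1 Cd300a had 93.6 CPM in the 207 cells of cluster 1 and 67.1 CPM in the 97 cells of cluster 7, and with cluster 1 alone its ratio was 0.36 (0.11 to 0.62). With the cells of cluster 3 counted as Kupffer-like, the ratio of Cd300a was −0.08 (−0.27 to 0.12), that of Cd300c2 −0.95 (−1.23 to −0.68) and that of Cd300lb −1.04 (−1.34 to −0.75). Over 1 kb on each side of its start, Cd300lb had −1.36 (−2.62 to −0.40), and with cells classed by marker list alone −0.28 (−0.91 to 0.28). The summed level of the 12 Kupffer markers was 847 CPM in Kupffer-like cells of library 2 and 1150 CPM in library 1, with none at 0, and that of the 12 endothelial markers was 519 and 629 CPM, with none at 0. The part of cell makeup and of the lower share of fragments in peaks in these differences was not tested, and genotype and library cannot be told apart.

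The 5 CD300 members differed in how much of the signal of their windows lay at the gene start. Their windows ran from 11.4 kb for Cd300ld to 23.2 kb for Cd300lf, and those of Cd300c2 and Cd300lf overlap Cd300ld4 and Rab37. The shares therefore also depend on window length and on other genes in the window. Within 500 bp on each side of the start, Cd300ld had 39 fragments in Kupffer-like cells of library 2 and 102 in library 1, or 63.9% (50.6 to 75.8) and 57.0% (49.4 to 64.3) of its window. Cd300lf had 46 and 118 fragments there, or 47.9% and 43.2%, Cd300a had 94 and 126, or 35.1% and 29.0%, and Cd300c2 had 20 and 76, or 23.8% and 24.4%. Cd300lb stood at the other end with 4 and 36 fragments, or 6.06% (1.68 to 14.8) and 12.6% (9.01 to 17.1), so its level comes mostly from the body and flanks of the gene. In endothelial-like cells the starts of these 5 genes held 8 fragments or fewer in each library. In cluster 5 the shares of the window were 72.7% and 65.2% for Cd300ld, 52.5% and 50.0% for Cd300lf, and 21.3% and 31.0% for Cd300a. Those of Cd300c2 were 29.3% and 27.8%, and those of Cd300lb 21.3% and 6.9%. At the Cd300lf start 118 fragments in Kupffer-like cells of library 1 stood against 0 in endothelial-like cells, at least 11.5-fold higher against 3 fragments. At the Cd300lb start 36 stood against 0, at least 3.51-fold higher. These bounds take the Kupffer-like counts as exact, and the intervals of the log2 ratios began at 3.2 and 1.44.

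The fullest bin of transposase cut sites lay 200 to 300 bp after the annotated start for Cd300a and Cd300c2 in both libraries. It held 68 and 68 cut sites for Cd300a. For Cd300c2 it held 15 and 40, close to the 9 and 35 in the 100 bp before the start. For Cd300ld and Cd300lf the fullest bin lay within 100 bp after the start or within 200 bp before it. For Cd300lb it lay 500 to 600 bp after the start, with only 4 cut sites in library 2 and 28 in library 1. For Pirb the fullest bin lay 1000 to 1100 bp after the start, with only 5 cut sites in library 2 and 14 in library 1. Of the 1 kb tiles wholly inside the Pirb window, the fullest in library 2 was chr7:3712001-3713000, at the far end of the gene, with 16 fragments in library 2 and 19 in library 1. The fullest in library 1 was chr7:3715001-3716000, inside the gene, with 6 in library 2 and 38 in library 1. For Lilrb4a the fullest kilobase was chr10:51490001-51491000, which holds the lower end of the gene, with 25 and 57 fragments in Kupffer-like cells against 0 and 0 in endothelial-like cells. The files used here give no strand for Lilrb4a, so this end is not named as start or end.

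**Figure D3:**
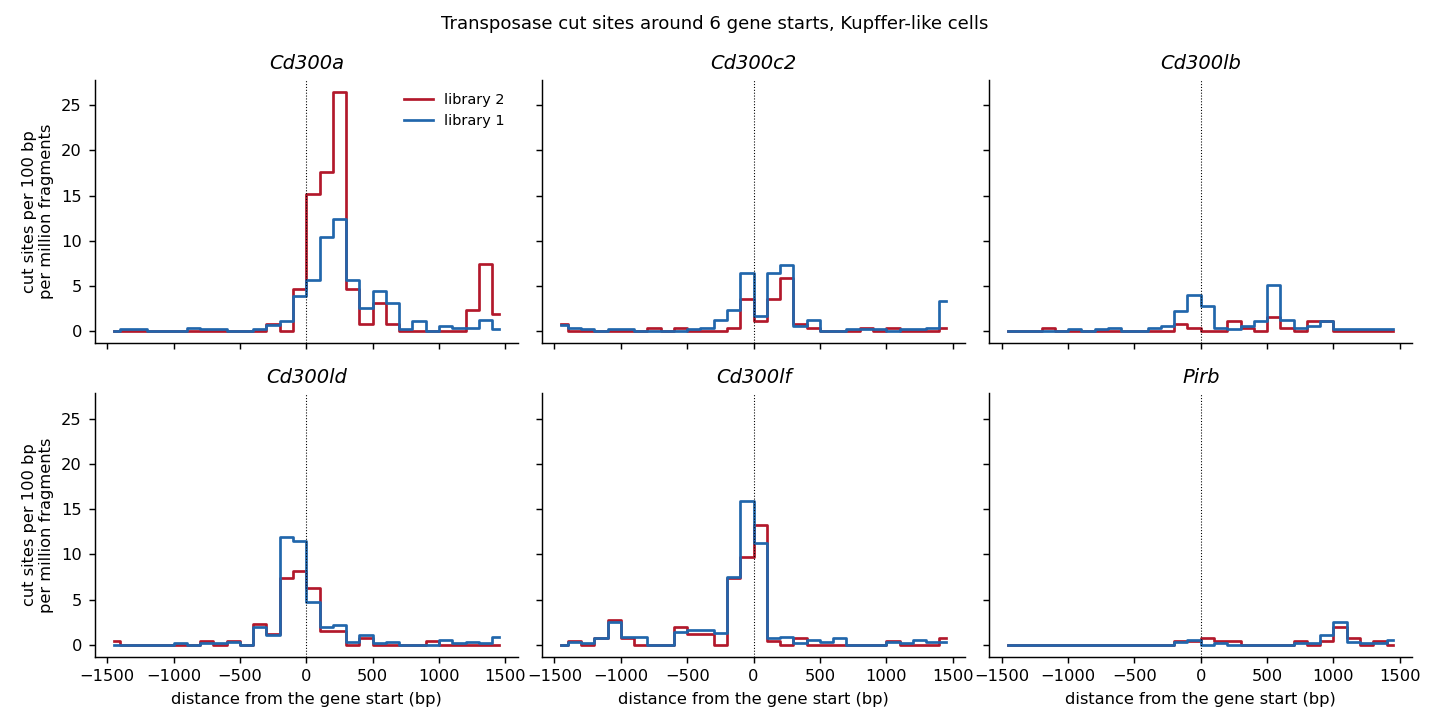
Cut sites per 100 bp and 1000000 fragments in Kupffer-like cells by distance in bp from the annotated start of the 6 genes with a RefSeq start, library 2 and library 1. Cd300a peaks 200 to 300 bp after its start, Cd300ld and Cd300lf peak at or just before it, and Pirb has few cut sites there.

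Across the 250.2 kb region, in tiles of 1 kb, the signal of Kupffer-like cells was concentrated in a few places. The tiles over chr11:115014001-115046000 held 0 fragments in Kupffer-like cells, endothelial-like cells and cluster 5 of both libraries. The starts of Cd300ld4 and Cd300ld5 lie there, and whether reads could be placed in this stretch was not tested. The fullest of the 251 tiles, chr11:114898001-114899000, lay inside Cd300a, 8.46 kb after its start, with 105 fragments in library 2 and 149 in library 1. The next, chr11:114890001-114891000, held the Cd300a start, with 94 and 138. The tile at chr11:114913001-114914000 had 56 and 141 fragments and lay between genes, 20.87 kb from the start of Cd300lb. A further intergenic tile, chr11:115071001-115072000, had 59 and 137 and lay 9.46 kb from the start of Cd300e, a relative that signals through Tyrobp. The fifth, chr11:115004001-115005000, with 34 and 137, lay where the windows of Cd300c2 and Cd300ld4 overlap, so its fragments cannot be given to a single gene. These 5 tiles held 24.6% and 18.9% of the tile counts in Kupffer-like cells of library 2 and library 1. They held 13.1% and 14.8% in endothelial-like cells and 15.4% and 18.9% in cluster 5, but they were picked as the fullest in Kupffer-like cells.

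Between Kupffer-like and endothelial-like cells, 6 of 6 tiles with at least 50 fragments were past the fold upward in library 2 and 25 of 25 in library 1. The same limit holds, as tiles reached the minimum mainly through Kupffer-like cells. Tiles over the whole genome were not counted. No share over all tiles therefore stands beside these counts or those between the libraries, and nothing is read from them. The Cd300a start tile had log2 ratios of 4.03 in library 2, with an interval of 2.79 to 6.10, and of 4.75 in library 1, with an interval of 2.83 to 10.65. The lowest ratios in library 1 lay in tiles between genes, 1.11 (0.06 to 2.58) at chr11:114912001-114913000 and 1.14 (0.20 to 2.39) at chr11:115072001-115073000. Between the libraries, 0 of 30 tiles of the region were past the fold upward and 1 downward, or 3.33% of these tiles. That tile, chr11:114915001-114916000, lay 18.87 kb from the start of Cd300lb, with 20 fragments in library 2 against 107 in library 1 and a log2 ratio of −1.10 (−1.89 to −0.43). Both Cd300a tiles stood on the other side, at 0.79 (0.41 to 1.16) in the gene body and 0.74 (0.35 to 1.13) at the start. A tile inside Rab37 with under 50 fragments, chr11:115112001-115113000, chosen after its values were seen, ran the other way between the classes. It had 3 fragments in Kupffer-like cells of library 2 and 1 in library 1, against 5 and 21 in endothelial-like cells.

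**Figure D4:**
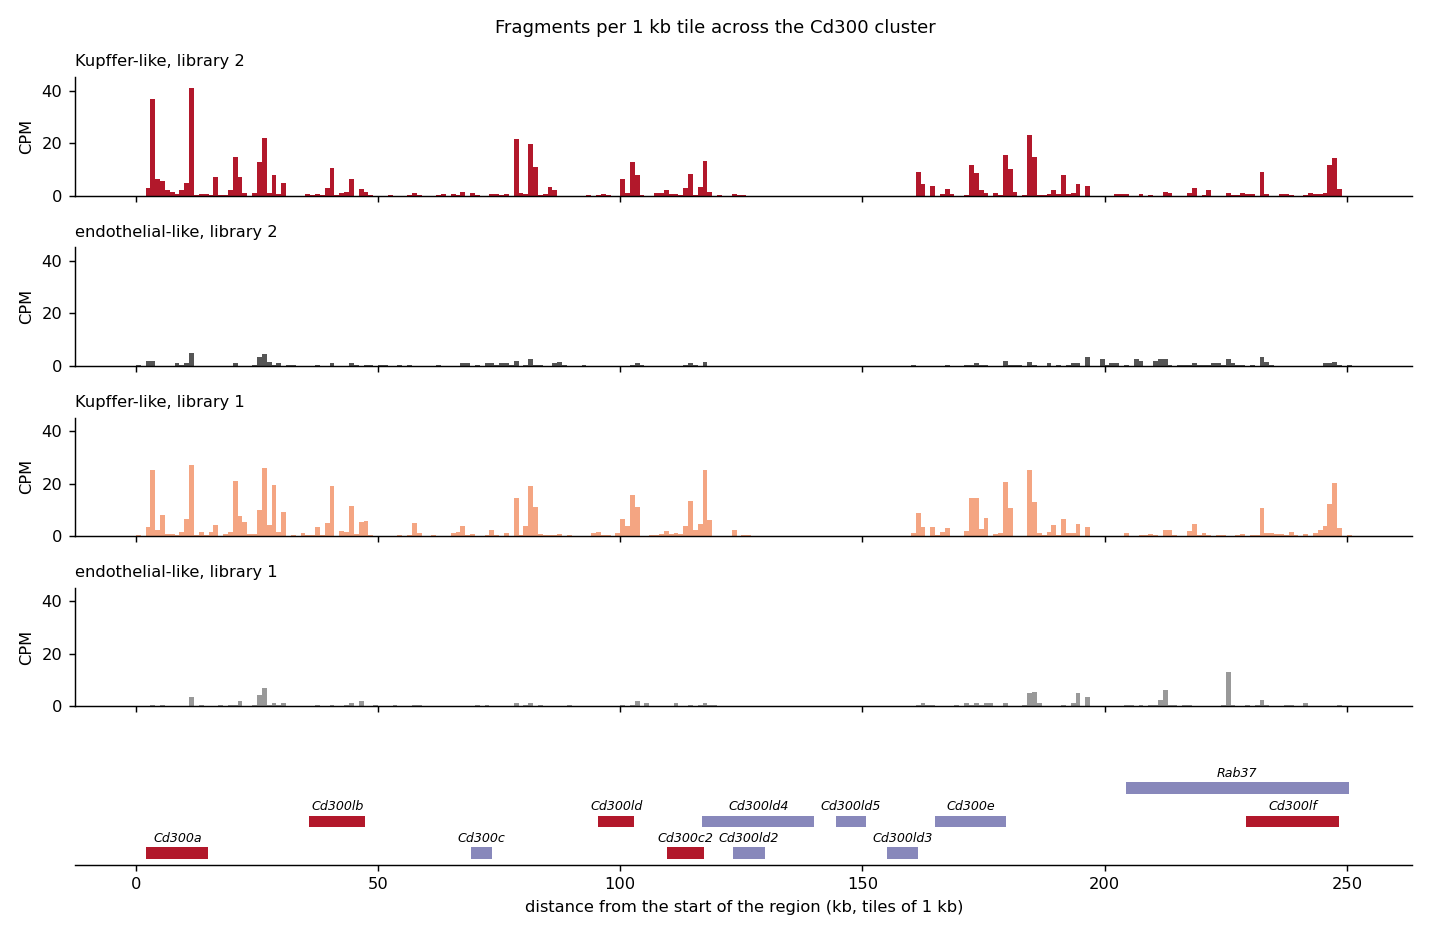
Level per 1 kb tile against distance in kb from the first tile of the Cd300 region, for Kupffer-like and endothelial-like cells of library 2 and then of library 1, in CPM on a shared scale, above the gene bodies drawn to scale with the 5 members in red. The fullest Kupffer-like tile, with 105 fragments in library 2 and 149 in library 1, lies in Cd300a. In endothelial-like cells the same tile is the fullest in library 2, with 10 fragments. Another tile, in Rab37, is the fullest endothelial-like tile of library 1, with 21.

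Relatives and signalling partners of the 7 receptors were taken from 8 lists with 48 genes, of which 43 matched a counted gene. Relative to endothelial-like cells, 17 of 30 of these genes with enough fragments were past the fold upward and 2 downward in library 2, and 24 of 37 upward and 2 downward in library 1. Over all genes the shares were 9.97% upward and 11.1% downward in library 2, and 12.1% upward and 9.68% downward in library 1. The adaptors followed the receptors, with 3 of 3 past the fold in each library and medians of 2.13 and 2.40. Tyrobp, the DAP12 adaptor of Cd300c2 and Cd300lb, had 62.4 and 71.6 CPM in Kupffer-like cells of library 2 and library 1, against 6.89 and 7.5 CPM in endothelial-like cells. Of 6 kinases 3 were past the fold in each library, led by Syk, which acts downstream of these adaptors, at 3.03 and 2.87. Of 3 phosphatases 1 was, Ptpn6 (SHP-1), which is recruited by the inhibitory receptors, at 2.20 and 2.49, while Ptpn11 (SHP-2) had −0.40 and −0.55.

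Of the CD300 relatives with enough fragments, 2 of 3 were past the fold upward in library 2 and 3 of 4 in library 1. Cd300ld4 had the highest log2 ratio in each, 3.16 and 3.85, in a window that it shares in part with Cd300c2. Of its 51 and 222 fragments in Kupffer-like cells, 34 and 137 lay in the shared tile chr11:115004001-115005000. The start of Cd300ld4 held 0 fragments, so its ratio mostly counts fragments of the Cd300c2 window again. Cd300lg (nepmucin), an endothelial member of the family that lies outside the cluster region, was past the fold downward in both libraries, with 18.7 and 11.7 CPM in Kupffer-like cells of library 2 and library 1, against 89.1 and 182 CPM in endothelial-like cells. Among paired and leukocyte receptor relatives 4 of 4 and 7 of 7 were past the fold upward, from 1.79 for Pilra to 3.92 for Lilr4b in library 2 and from 1.30 for Pilrb2 to 4.05 for Lair1 in library 1. Other inhibitory receptors were mixed, with 2 of 5 and 4 of 7 upward, led by Siglece at 1.54 and Cd72 at 3.43, and Fcgr2b, which liver sinusoidal endothelium carries, downward at −2.69 and −2.20. Other activating receptors had 2 of 3 and 3 of 4 upward, led by Clec7a at 3.85 and Trem1 at 3.30, with Oscar lowest at −0.18 and −0.16. The class I genes, whose products are ligands of Pirb, had 0 of 3 past the fold in each library, and H2-K1 had 0.09 and −0.12.

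Between the libraries 0 of 38 related genes in Kupffer-like cells were past the fold upward and 4 downward, beside 6.69% and 3.76% of all genes. These were Lair1, an inhibitory collagen receptor, with 31.2 CPM in library 2 against 77.7 CPM in library 1, the activating receptors Pilrb1 and Pilrb2, and Cd72, an inhibitory receptor best known on B cells. Lilr4b (gp49A), the close relative of Lilrb4a, had 33.9 CPM against 19.6 CPM and a ratio of 1.00 (0.57 to 1.42), just short of the fold before rounding. Over 12 profiles, each a cluster within a library, the genes whose levels were most like the mean of the 7 members were Treml4, Nckap1l, Slc28a2, Ccl4 and Cd44, with Pearson r from 0.988 to 0.978 among 15170 genes. The profiles share 2 libraries and their depth, so r is a description. Among the members themselves Cd300c2 and Lilrb4a were the most alike at 0.939, and Pirb and Lilrb4a the least at 0.623.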

How the data were processed

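Open chromatin was measured in 2 single-nucleus ATAC libraries. The authors deposited counts of read pairs per unique fragment with its barcode and GRCm38 coordinates, a table of counts per barcode with their cell calls, and peaks. The submitters' processing notes name Signac 0.2.4, Seurat, R 3.6.1, Cell Ranger, Cell Ranger ATAC 1.2.0 and the build GRCm38.p5. Aligner settings are not given in the sources used here.

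From these, called cells were kept if 1000 or more fragments, making up 15% or more, fell in peaks and no more than 5% in blacklisted regions. Fragments in 5 kb bins seen in at least 10 cells, without the bins of the member loci, were weighted by TF-IDF, reduced to 30 components (29 used) and clustered (20 neighbours, Leiden resolution 0.5). The graph weighting was chosen after class sizes, not member values, were seen. Clusters were named from 14 marker lists with 117 genes. Doublets were kept, and leaving out 85 and 68 barcodes marked by overlapping fragments was an alternative. Fragments were counted over gene bodies with 2 kb on both sides and scaled per 1000000 fragments of the class. Ratios add 0.5 to each count, are set relative to the median gene and carry exact conditional binomial 95% intervals, and levels carry exact Poisson intervals. Genes and tiles needed 50 fragments. The ratios and intervals were checked on simulated Poisson counts, which hold no pile-ups, and the window counting on hand-made fragments. All 7 members, every matched gene of the related lists (by counts, with the highest and lowest named), the 5 most alike genes, the 5 fullest tiles and the 3 tiles with the largest and smallest ratios were to be named, and others named were chosen after their values were seen. The members and lists were chosen with earlier results of these data known. Python 3.11.15, scanpy 1.11.5, leidenalg 0.10.2, scikit-learn 1.9.0 and scipy 1.17.1 were used.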

Additional observations from a re-analysis of the deposited data

Results flagged for a closer look

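Fragments of barcodes that are not called cells were used in no comparison, yet they covered every member. Over these barcodes Cd300a had 19.3 CPM in library 2 and 24.5 CPM in library 1, Cd300c2 11.2 and 21.9, Cd300lb 12.2 and 19.8, and Cd300ld 8.02 and 10.4. Cd300lf had 15.7 and 20.9 CPM, Pirb 3.8 and 7.31, Lilrb4a 4.64 and 8.88, and the whole Cd300 region 146 and 220. The limit that a count of 0 allows was 0.316 CPM in library 2 and 1.57 CPM in library 1. For Cd300a these levels lay below those of Kupffer-like cells and above those of endothelial-like cells.

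Some members had ratios of opposite sign in different cells or libraries, and none of these differences was tested. For library 2 over library 1, Cd300a had a log2 ratio of 0.60 in Kupffer-like cells and −0.24 in cluster 5, Cd300c2 −0.59 and 0.11, and Lilrb4a 0.12 and −0.21. For Kupffer-like cells over cluster 5, Cd300a had 0.77 in library 2 and −0.03 in library 1, Cd300c2 −0.27 and 0.46, and Cd300lb −0.20 and 0.64. In the same order Cd300lf had 0.34 and −0.14 and Lilrb4a 0.14 and −0.15. The 95% counting intervals were apart for Cd300a in both contrasts and overlapped for the other genes. Both contrasts use the same fragment counts of the same classes, so the second is no separate result.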

How the results depend on the processing

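Results were recomputed under 15 other settings, and under 3 more chosen after seeing the data (cluster 3 counted as Kupffer-like, cluster 1 alone in library 1, fragments with at least 2 read pairs). No member ratio past the fold changed sign, but Cd300a between the libraries went to −0.08 with cluster 3 counted, Pirb ranged from −1.12 to 0.48 and Lilrb4a from −0.27 to 0.55. For Kupffer-like over endothelial-like cells 106 of 112 member ratios in library 2 and 110 of 112 in library 1 moved by less than their interval, and for library 2 over library 1, 102 of 112 did. Members past the fold upward in library 2, 5 as reported, numbered 1 at Leiden resolution 1, 1 with classes by marker list, 1 with cells thinned and 2 over 1 kb each side of the start. Members past the fold downward between the libraries, 0 as reported, numbered 1 at resolution 1, 1 over the start windows and 1 with cluster 3 counted. The region ratio in library 2 was 2.51 without doublets, 2.49 with pile-ups masked and 1.81 with cluster 3, in library 1 it was 2.81 without doublets, and between the libraries it was −0.29 at resolution 1, −0.04 by marker list, −0.30 thinned and −0.56 with cluster 3. Tiles past the fold upward in library 2 (6) numbered 3 without doublets, 1 at resolution 1, 0 by marker list, 15 by insertions, 0 thinned, 108 with no minimum (32 downward) and 15 with cluster 3. In library 1 (25) they numbered 11 by marker list, 38 by insertions, 1 thinned, 115 with no minimum (69 downward) and 11 with cluster 1 alone. Between the libraries (0 upward, 1 downward) they numbered 1 and 3 at resolution 1, 1 and 0 by marker list, 1 and 8 by insertions, 0 downward thinned, 83 and 53 with no minimum, and 8 downward with cluster 3. Thinning, a minimum and fewer cells leave fewer features to call by construction, and for the other settings the cause was not tested. No paired analysis was possible because each genotype has a single library. Depth left Pirb and Lilrb4a under 50 fragments against endothelial-like cells in library 2.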
